A study of Mus musculus with 8 samples.

Results

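The R-spondin module consists of 9 genes: the secreted R-spondins Rspo1, Rspo2, Rspo3 and Rspo4, their receptors Lgr4, Lgr5 and Lgr6, and the membrane ubiquitin ligases Rnf43 and Znrf3. They were taken by gene symbol from the gene lists of the deposited count matrices, and all 9 were found among the 32285 genes of each of 8 mouse intestinal libraries. The rule reads gene symbols and no measured value, although the genes were proposed with earlier results of these data known.

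R-spondins are secreted proteins that raise the sensitivity of a cell to Wnt ligands. RNF43 and ZNRF3 mark Frizzled receptors, which bind Wnt, for removal from the cell surface, and an R-spondin that bridges one of these ligases to an LGR receptor takes the ligase off the membrane, so that Frizzled stays. In the intestine the crypt base holds stem cells that carry LGR5 and depend on Wnt signals, RNF43 and ZNRF3 act there as feedback inhibitors, and stromal cells are a known source of R-spondin.

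The samples were of 4 kinds, all from mice of the C57BL/6 background. Small intestinal organoids, which are epithelial cultures grown from crypts, were profiled by droplet single-cell RNA sequencing at passage 1, as 1 library of organoids alone (CTRL) and 1 library of organoids in coculture. The labels gave no name for the coculture partner. Per the study's description, 16 wells of each culture were pooled, 100000 epithelial cells were sorted from each, and both samples were put together for submission. Sorted cells of small and of large intestinal tissue gave 1 single-cell library each. The sort enriched LGR5+ stem cells and CD31+ PDPN+ LYVE1+ lymphatic endothelial cells, so that shares of cell classes, and in part the level of Lgr5 over a whole library, follow the sort. Both C57BL/6 and Lgr5-eGFP-ires-CreERT2 mice, in which a green fluorescent protein and a Cre recombinase are inserted in the Lgr5 locus, served for sorting, and which cells came from which genotype was not stated. The remaining 4 libraries were 10x Visium sections of 10 µm, 2 of the small and 2 of the large intestine, which were technical duplicates for each tissue. The titles of the sections begin with WT, the usual short form of wild type, whereas reporter mice were named for the sorted tissue. Ages were not given.

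After filtering, 538 cells of organoids alone, 1028 cells of organoids in coculture, 2695 cells of the small and 5882 cells of the large intestinal tissue were kept, with 43279721, 96956612, 52182323 and 123827909 unique molecular identifiers (UMIs), each of which counts 1 captured RNA molecule. The median UMIs per kept cell were 73663.5, 86295, 11810 and 21761. The small intestinal tissue library lost 5497 of its 8842 barcodes to the limit on mitochondrial RNA, and the 2 tissue libraries shared 25 barcodes. The sections held 2094 and 2571 spots in the small and 2094 and 2179 spots in the large intestine. With 1 library per condition or tissue and technical duplicates of the sections there was no test between groups. Ranges in parentheses are 95% counting intervals, which cover counting error only. They are exact Poisson for a level in CPM (a gene's UMIs relative to all UMIs of its group of cells or spots), exact binomial for a share of cells, and an exact ratio interval for log2 ratios of levels. A difference of at least 1 on the log2 scale is called past the fold, and the counting intervals say nothing about the spread between animals or cultures.

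By the annotation of GRCm38.p6, the R-spondin genes lie at chr4:124986401-125009102 (Rspo1), chr15:43020788-43171594 (Rspo2), chr10:29453106-29535867 (Rspo3) and chr2:151842647-151874668 (Rspo4). The receptor genes lie at chr2:109917647-110014257 (Lgr4), chr10:115450314-115587780 (Lgr5) and chr1:134983300-135105374 (Lgr6), and the ligase genes at chr11:87663087-87735539 (Rnf43) and chr11:5276329-5444847 (Znrf3). Lgr4 and Rnf43 were the receptor and the ligase read from the most cells of both tissue libraries, so the 250 bases before their start sites are shown for the contrast in their base patterns, from RefSeq on GRCm38.p6 and on the plus strand. Capitals mark the CCAAT box, a common promoter element, read on both strands. The Lgr4 window is chr2:109917397-109917646 and the Rnf43 window, the first of 2 listed for the gene, is chr11:87662837-87663086.
Lgr4: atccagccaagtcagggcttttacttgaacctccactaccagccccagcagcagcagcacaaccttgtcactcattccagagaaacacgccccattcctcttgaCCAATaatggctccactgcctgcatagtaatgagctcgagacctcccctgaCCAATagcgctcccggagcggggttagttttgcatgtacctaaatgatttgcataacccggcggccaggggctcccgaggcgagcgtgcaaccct
Rnf43: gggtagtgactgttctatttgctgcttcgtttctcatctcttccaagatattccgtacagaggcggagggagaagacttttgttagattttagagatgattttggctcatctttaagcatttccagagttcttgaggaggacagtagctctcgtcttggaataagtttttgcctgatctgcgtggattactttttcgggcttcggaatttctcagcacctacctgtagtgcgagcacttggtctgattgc
The Lgr4 window held 2 CCAAT boxes and the Rnf43 window 0, whereas 33.8% of 32851 windows of 250 bases before gene starts held at least 1. The core of the motif bound by the Wnt effectors TCF and LEF, CTTTGA on either strand, was found in 13.8% of these windows and in neither of the 2 shown, which says only that these letters are not in these windows. Of the 9 genes, 5 had an entry in the promoter table.

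Rspo3, the R-spondin with the most UMIs in both tissue libraries, was highest in lymphatic endothelial-like cells. A class called lymphatic endothelial-like carried at least 3 of 7 fixed lymphatic markers (Lyve1, Prox1, Ccl21a, Mmrn1, Flt4, Pdpn and Reln), and all 7 supported the name in both tissues. In the small intestine these 349 cells held 428 Rspo3 UMIs, a level of 346 CPM (314 to 380). The 33 fibroblast-like cells held 34 UMIs, or 142 CPM (98.0 to 198), and the 57 smooth muscle or pericyte-like cells held 28 UMIs, or 66.0 CPM (43.8 to 95.3). The order was lymphatic endothelial over fibroblast over muscle, with log2 ratios of 1.29 (0.78 to 1.84) for the first step and 2.39 (1.84 to 2.997) between the first and the last. Over the alternatives the first step ranged from 1.01 (0.504 to 1.56) with the loose filter to 1.95 (1.56 to 2.36) with doublets kept, and it was 1.89 (1.503 to 2.30) at a clustering resolution of 0.5. Blood endothelial-like, stem-like and B-like cells had 0 Rspo3 UMIs. Of 503 Rspo3 UMIs in the kept cells of the library, 85.1% came from lymphatic endothelial-like cells, which were 12.9% of the kept cells.

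An Rspo3 UMI was present in 60.2% of the small intestinal lymphatic endothelial-like cells. After every cell was thinned to 2000 UMIs, so that deep and shallow cells could be compared, the share was 49.2% (43.0 to 55.5), with 91 shallower cells left out. In thinned fibroblast-like cells it was 28.1% (13.7 to 46.7), and in B-like cells, which should lack Rspo3, it was 0 of 273, which allows a share of cells with a UMI of up to 1.0989% (3 of 273 cells). Lymphatic endothelial-like cells fell into a cluster of 262 cells led by Ccl21a, Lyve1 and Mmrn1 with 353 CPM and a cluster of 87 cells led by Mir99ahg and Reln with 285 CPM. The log2 ratio between them was 0.31 (-0.19 to 0.84), and Rspo3 was therefore read from both clusters at levels whose difference was within counting error.

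The large intestine had the same order at lower levels. Its 205 lymphatic endothelial-like cells held 58 Rspo3 UMIs, or 103 CPM (78.0 to 133), and its 303 fibroblast-like cells held 100 UMIs, or 43.7 CPM (35.5 to 53.1), a log2 ratio of 1.23 (0.74 to 1.71). This ratio fell under the fold with the strict filter (0.98, 0.45 to 1.49) and with the CPM averaged over single cells (0.83). In smooth muscle or pericyte-like cells the level was 9.64 CPM from 7 UMIs, all in 1 cell. A thinned Rspo3 UMI was seen in 19.1% (12.4 to 27.5) of lymphatic endothelial-like cells, against 18.0% without thinning, and in 0 of 107 B-like cells. Fibroblast-like cells held 58.8% of the 170 Rspo3 UMIs and lymphatic endothelial-like cells 34.1%, the reverse of the order by level. Summed over all genes, these classes held 2290397 and 564987 UMIs, with a median of 7585 and 2292 per cell. Within fibroblast-like cells, a cluster of 191 cells led by Pcolce2, Pi16 and C3 was at 58.7 CPM, and a cluster of 112 cells led by Edil3, Ccn2 and Eln was at 18.6 CPM, a log2 ratio of 1.66 (0.87 to 2.53).

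Rspo3 was higher in the small than in the large intestine in lymphatic endothelial-like, fibroblast-like and smooth muscle or pericyte-like cells. The stated sort targeted the first of these classes but neither of the others, and how those cells, 33 and 57 in the small and 303 and 114 in the large intestine, came through it was not stated. Fibroblast-like cells had a log2 ratio of 1.70 (1.09 to 2.27), near the 1.75 (1.35 to 2.17) of lymphatic endothelial-like cells, and muscle or pericyte-like cells had 2.77 (1.55 to 4.21), the last of which rests on the single large intestinal cell above. Among all genes with at least 20 UMIs, 8.06% of those in lymphatic endothelial-like cells were past the fold as higher and 4.92% as lower in the small intestine. For fibroblast-like cells these shares were 6.73% and 7.45%. Median depth also differed between the tissues, and its part in these differences was not tested.

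Rspo1 and Rspo2 were sparse. In the small intestine 18 of 20 Rspo1 UMIs came from fibroblast-like cells (75.0 CPM, 44.4 to 118), but 12 of these 18 came from 1 cell. When each cell was assigned on its own markers, that cell went to the mesothelial class, and fibroblast-like cells kept 6 Rspo1 UMIs at 11.9 CPM. The large intestine had 24 Rspo1 UMIs in 23 fibroblast-like cells (10.5 CPM, 6.71 to 15.6), of which the cluster led by Pcolce2, Pi16 and C3 held 23 and the cluster led by Edil3, Ccn2 and Eln held 1. Rspo2, known in other organs as a mesenchymal R-spondin, had 13 UMIs in the small intestine, 7 in fibroblast-like and 6 in smooth muscle or pericyte-like cells, and 2 UMIs in the large intestine. Lymphatic endothelial-like cells held 0 UMIs of Rspo1 and of Rspo2 in both tissues. Rspo4 had 0 UMIs in either tissue library. Among the R-spondins, only Rspo3 was thus detected in lymphatic endothelial-like cells, at a depth where 3 UMIs would be 2.42 CPM in the small and 5.31 CPM in the large intestine.

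**Figure D1:**
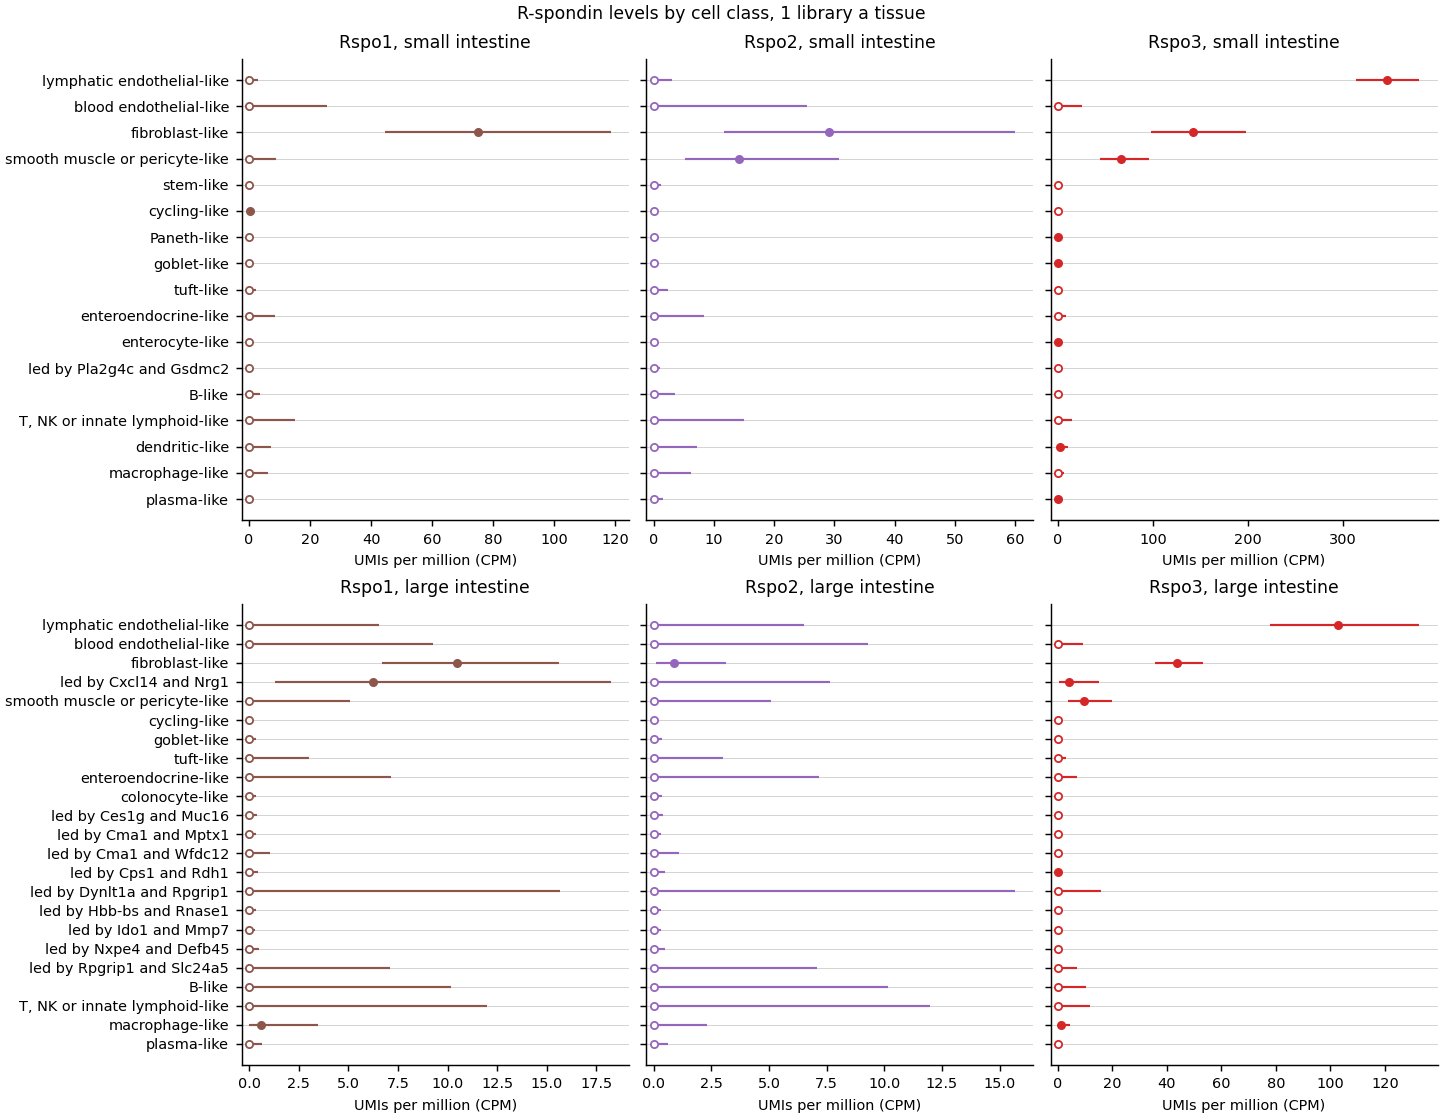
Levels of Rspo1, Rspo2 and Rspo3 in CPM (horizontal axis) by cell class or cluster (vertical axis) in the small and large intestinal tissue libraries. Points are levels over all cells of a class, lines are 95% Poisson intervals and open points mark 0 UMIs. The lymphatic endothelial-like points of Rspo3, 346 CPM (small) and 103 CPM (large), lie above those of every other class drawn.

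Receptors were read mainly from epithelium. Lgr5, the receptor that marks crypt base stem cells and that was also used for the sort, was at 163 CPM (149 to 178) in the 147 stem-like cells of the small intestine. Tuft-like cells, a rare chemosensory lineage, were next at 41.9 CPM (32.4 to 53.3) and cycling-like cells followed at 36.1 CPM (32.6 to 39.9), whose intervals overlapped. Stem-like cells stood above tuft-like cells by a log2 ratio of 1.96 (1.59 to 2.35). Paneth-like cells were at 9.98 CPM, goblet-like cells at 6.30 CPM and enterocyte-like cells at 0.689 CPM.

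Some Lgr5 UMIs lay outside the epithelium. Small intestinal lymphatic endothelial-like cells held 23 (18.6 CPM, 11.8 to 27.9) in 19 cells, smooth muscle or pericyte-like cells 8 (18.8 CPM, 6 of them in 1 cell) and macrophage-like cells 9 (15.2 CPM, 6 of them in 1 cell). B-like cells, a class that should lack the gene, held 3 (2.94 CPM, 0.606 to 8.58). After thinning, a Lgr5 UMI was seen in 38.6% of stem-like cells (78.2% without thinning) and in 1 of 273 B-like cells. In the large intestine, lymphatic endothelial-like cells held 2 Lgr5 UMIs.

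In the large intestine no cluster met the rule for the name stem-like. The cluster led by Cps1 and Rdh1 had the highest Lgr5 level at 61.8 CPM (56.4 to 67.6), followed by tuft-like cells at 50.4 CPM (38.6 to 64.6), the cluster led by Hbb-bs and Rnase1 at 38.4 CPM (34.9 to 42.2) and cycling-like cells at 30.6 CPM (28.5 to 32.8). The first 2 of these did not differ beyond their intervals. Goblet-like cells were at 1.89 CPM, colonocyte-like cells at 3.38 CPM and B-like cells at 0. When each cell was assigned on its own markers, 960 large and 212 small intestinal cells were called stem-like, with Lgr5 at 42.7 CPM and 130 CPM, a log2 ratio of small over large of 1.60 (1.46 to 1.75). For this the markers were scaled within each library, so the 2 stem-like classes were not drawn by a common cutoff. No share of all genes past the fold was computed for them. In tuft-like cells the Lgr5 ratio of small over large was -0.27 (-0.79 to 0.26), an interval that includes 0, where 8.88% of all genes were past the fold as higher and 7.32% as lower.

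Lgr4, which binds all R-spondins and is expressed widely, was spread over the epithelial classes. In the small intestine it was at 72.4 CPM (63.3 to 82.4) in stem-like, 61.4 CPM in cycling-like, 52.5 CPM in goblet-like, 41.2 CPM in enterocyte-like, 41.0 CPM in Paneth-like and 40.0 CPM in tuft-like cells. Stem-like cells exceeded enterocyte-like cells by a log2 ratio of 0.81 (0.58 to 1.04), which is not past the fold but was 1.06, past it, without mitochondrial and ribosomal protein genes in the total. The ratio of Lgr5 between these 2 classes was 7.89 (6.90 to 9.11). Outside the epithelium Lgr4 was at 12.5 CPM in fibroblast-like and 10.5 CPM in lymphatic endothelial-like cells, against 5.87 CPM (2.16 to 12.8) in B-like cells, whose interval reached both. In the large intestine colonocyte-like cells, the differentiated absorptive class, were at 73.5 CPM (68.4 to 78.9), above cycling-like (39.6 CPM), goblet-like (36.7 CPM) and tuft-like cells (22.8 CPM). Lgr6 had 1 UMI in the small and 3 in the large intestinal library.

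Both ubiquitin ligases were higher in stem-like than in enterocyte-like cells. Rnf43 was at 119 CPM (107 to 132) in small intestinal stem-like cells, 42.8 CPM in cycling-like, 24.7 CPM in tuft-like, 14.3 CPM in goblet-like, 9.11 CPM in Paneth-like and 7.75 CPM in enterocyte-like cells. The log2 ratio of stem-like over enterocyte-like cells was 3.94 (3.61 to 4.29), an interval that lies above that of Lgr4 for the same classes. In the large intestine Rnf43 was at 58.5 CPM in the cluster led by Hbb-bs and Rnase1 and at 57.7 CPM in the cluster led by Cps1 and Rdh1, against 12.3 CPM in colonocyte-like cells. Rnf43 in cycling-like cells differed between the tissues by a log2 ratio of 0.03 (-0.13 to 0.18).

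Znrf3 had fewer UMIs, 335 in the small and 771 in the large intestinal library. Small intestinal stem-like cells held 66 (21.0 CPM, 16.3 to 26.8) and exceeded enterocyte-like cells by a log2 ratio of 3.41 (2.71 to 4.16). Some UMIs lay outside the epithelium. B-like cells, the reference for background here as for the other members, were at 1.96 CPM (0.237 to 7.07) from 2 UMIs in the small and 2.76 CPM (0.0698 to 15.4) from 1 UMI in the large intestine. Plasma-like cells, which secrete antibodies, were at 14.1 CPM (9.65 to 19.9) from 32 UMIs in 22 cells of the small and at 13.5 CPM (10.7 to 16.8) from 79 UMIs in 68 cells of the large intestine, a log2 ratio of 0.07 (-0.57 to 0.68). In plasma-like cells Rnf43 was at 2.65 CPM and 1.53 CPM. T, NK or innate lymphoid-like cells had 6 Znrf3 UMIs in each tissue, at 24.3 CPM (8.92 to 52.9) and 19.5 CPM (7.15 to 42.4), with intervals that reached that of small intestinal stem-like cells. The intervals of both classes lay above that of B-like cells in the small intestine and overlapped it in the large intestine. After thinning to 2000 UMIs, a Znrf3 UMI was seen in 1 of 89 plasma-like, 2 of 57 T, NK or innate lymphoid-like and 1 of 273 B-like cells of the small intestine, and in 6 of 287, 2 of 76 and 1 of 107 of the large. Apart from the 6 of 287, these are under 3 cells, so at this depth no difference from B-like cells was detectable in them.

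**Figure D2:**
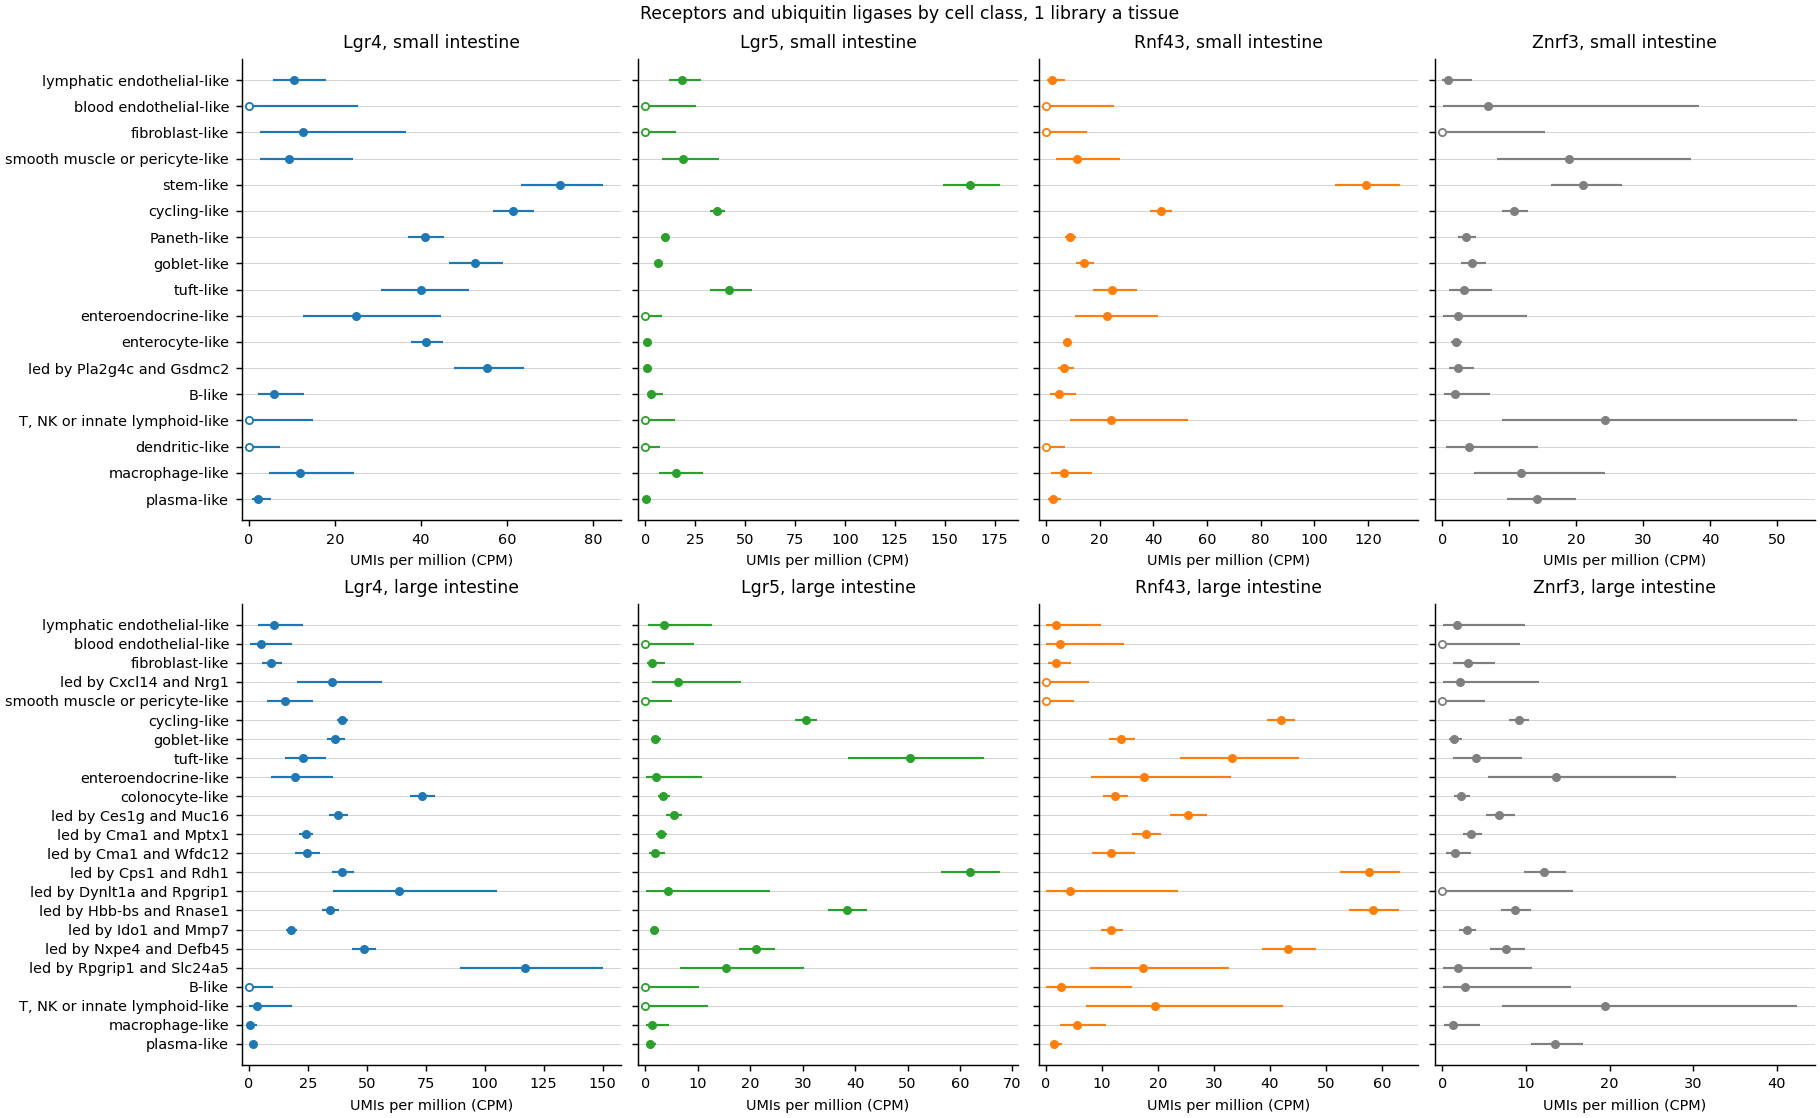
Levels of Lgr4, Lgr5, Rnf43 and Znrf3 in CPM (horizontal axes, scaled per panel) by cell class or cluster (vertical axis) in the 2 tissue libraries. Points are levels, lines are 95% Poisson intervals and open points mark 0 UMIs. In the small intestine Lgr5 and Rnf43 peak in stem-like cells at 163 and 119 CPM, while Lgr4 stays between 40.0 and 72.4 CPM in the stem-like, cycling-like, goblet-like, enterocyte-like, Paneth-like and tuft-like classes.

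Beside Lgr5, the tissue libraries listed 2 added features named GFP-PLUS and GFP-MINUS. How they were built into the reference was not stated. Over all kept cells GFP-PLUS had 194 UMIs against 1149 Lgr5 UMIs in the small intestine, or 0.169 per Lgr5 UMI, and 1875 against 2101 in the large intestine, or 0.892 per Lgr5 UMI. In the small intestine 60 cells held both, which was 17.5% of the 343 cells with Lgr5 and 62.5% of the 96 cells with GFP-PLUS. In the large intestine 538 cells held both, 59.8% of 899 and 61.1% of 880 cells. Cycling-like cells had a log2 ratio of small over large of -2.43 (-2.83 to -2.05) for GFP-PLUS and of 0.24 (0.06 to 0.42) for Lgr5, whereas in tuft-like cells 38 small and 29 large intestinal UMIs gave GFP-PLUS levels of 24.1 and 23.6 CPM. The gap in GFP-PLUS was therefore not seen in every class. The share of reporter cells in each sort was not stated, and its part in this difference was not tested.

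Cells with a Lgr5 UMI were also compared with cells without one inside the same class, after thinning to 5000 UMIs. In large intestinal cells called stem-like on their own markers, GFP-PLUS was higher in cells with Lgr5 by a log2 ratio of 1.19 (0.72 to 1.65). Rnf43 was at 0.36 (-0.08 to 0.78), and the housekeeping gene Actb at 0.03. In small intestinal stem-like cells, 77 with and 65 without a Lgr5 UMI, Rnf43 was at 0.41 (-0.23 to 1.06) and Lgr4 at 0.39 (-0.47 to 1.28). Znrf3 had 15 UMIs with and 2 without, a log2 ratio of 2.08 with the 2 set to 3 (0.56 to 5.83), an interval clear of 0, and GFP-PLUS 14 and 6 (0.98, -0.49 to 2.64). In large intestinal stem-like cells Lgr4 was at -0.35 (-1.01 to 0.26) and Znrf3 at 0.51 (-0.48 to 1.41), so that of the members and GFP-PLUS only the latter had an interval clear of 0 there.

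Across the 29 named classes of both tissue libraries, the genes whose levels were most like those of each member were found by Pearson correlation of log2(CPM + 1). These correlations describe classes that share a library and a depth, and carry no test. Rspo3 was most like Adamtsl1 (r = 0.974), the lymphatic marker Pdpn (0.959) and Pappa (0.947). Lgr5 was most like Colca2 (0.824), the stem cell transcription factor gene Ascl2 (0.774) and Jpx (0.773). For Lgr4 they were Elf3 (0.890), which encodes an epithelial transcription factor, Nipal2 (0.887) and Baiap2l1 (0.876). For Rnf43 they were Acpp (0.902), Myb (0.826) and Hook1 (0.823), and for Znrf3 Slain1 (0.640), Gnb1l (0.608) and Fen1 (0.602). Among the members, Lgr5 and Rnf43 had an r of 0.647, Lgr4 and Lgr5 0.617, Lgr4 and Rnf43 0.560 and Rspo3 and Rnf43 -0.457. Pdpn and Ascl2 belong to the marker lists that named the classes, so their place here is in part set by those names.

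The coculture comparison asks how organoid epithelium differs when grown beside other cells. Of the 4 members with at least 20 UMIs, Lgr5 alone was past the fold, and it was lower. Lgr5 had 279 UMIs (6.45 CPM) in organoids alone and 137 UMIs (1.41 CPM) in coculture, a log2 ratio of -2.19 (-2.50 to -1.89), and was seen in 87 and 58 cells. Averaging the CPM of single cells gave a smaller difference of -1.501, outside that interval. Of the 13953 genes compared, 5.05% were past the fold in the lower and 2.76% in the higher direction, and the median gene was at -0.11. Lgr4 was at 35.9 and 28.2 CPM (-0.35, -0.44 to -0.26), Rnf43 at 30.7 and 20.1 CPM (-0.61, -0.71 to -0.51) and Znrf3 at 7.26 and 5.74 CPM (-0.34, -0.54 to -0.13). All 4 were lower in coculture, 3 of them by less than the fold. In such summed levels fewer cells of a type and less RNA per cell cannot be told apart.

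The lower Lgr5 level was also seen inside single classes. In a pair of clusters led by Cdc6 and Hist1h1a, genes of DNA replication and chromatin, it was at 10.1 CPM from 103 UMIs alone and 1.21 CPM from 21 UMIs in coculture (-3.05, -3.81 to -2.37). Each of these clusters had 3 of the 8 stem markers, but their leading genes are those of S phase, so they are not called stem-like here. Cells called stem-like on their own markers differed less, at 11.6 CPM (9.69 to 13.8) from 130 UMIs alone and 3.99 CPM (3.06 to 5.12) from 62 UMIs in coculture. Cycling-like cells were at 7.59 and 1.37 CPM (-2.47, -3.02 to -1.94), and Paneth-like cells, which nurse the stem cells in the crypt, at 16.5 and 5.20 CPM (-1.67, -2.40 to -0.98). Alone, these 28 Paneth-like cells had the highest Lgr5 level of the classes formed by clustering. Of them 42.9% held a Lgr5 UMI, so the class was not free of cells with Lgr5. The lower level was not seen in the summed counts of the cluster led by Lgals1 and Tmem237, at 4.18 and 4.08 CPM (-0.03, -1.09 to 1.16). Of its 32 Lgr5 UMIs in coculture, however, 15 came from 1 cell. Without thinning, a Lgr5 UMI was seen in 17.9% of its cells alone and in 8.33% in coculture. Enterocyte-like cells had 0 Lgr5 UMIs in both libraries. With each cell thinned to 10000 UMIs, Lgr5 was seen in 8.26% (9 of 109) of cells of the clusters led by Cdc6 and Hist1h1a alone and 1.13% (2 of 177) in coculture. The shares were 9.57% (9 of 94) and 0.913% (2 of 219) of cycling-like cells and 18.5% (5 of 27) and 7.27% (4 of 55) of Paneth-like cells. Both counts of 2 are under 3 cells. The intervals of the shares were apart in cycling-like cells only, and overlapped in the other 2 groups.

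Rnf43 was lower in coculture by less than the fold, at 45.0 against 33.1 CPM in the clusters led by Cdc6 and Hist1h1a (-0.44, -0.62 to -0.26), 35.2 against 23.6 CPM in cycling-like cells (-0.57, -0.74 to -0.40) and 40.0 against 22.4 CPM in Paneth-like cells (-0.83, -1.20 to -0.47). In the cluster led by Lgals1 and Tmem237 the difference was past the fold, at 40.9 against 19.7 CPM (-1.06, -1.43 to -0.68). Regenerative epithelium-like cells, which carry injury-response markers such as Clu and Anxa1, went from 9.14 to 2.35 CPM of Rnf43 (-1.96, -3.34 to -0.82). Lgr4 was at 37.1 and 29.97 CPM in the clusters led by Cdc6 and Hist1h1a (-0.31, -0.50 to -0.11) and at 23.5 and 11.4 CPM in regenerative epithelium-like cells (-1.04, -1.63 to -0.49). Both regenerative differences depended on how cells were assigned: with each cell assigned on its own markers this class was at 12.1 and 9.04 CPM of Rnf43 and at 26.9 and 25.2 CPM of Lgr4, with intervals that overlapped. Rspo1, Rspo2 and Rspo3 had 0 UMIs in either organoid library. The fibroblast markers Col1a1, Col3a1 and Dcn and the lymphatic markers Ccl21a, Mmrn1, Pdpn and Reln were also at 0 in both. Of the 7 lymphatic markers 3 had a UMI in each library, with a summed 1.94 CPM alone and 3.54 CPM in coculture, and of the 8 fibroblast markers 1 and 2 did, with 2 and 3 UMIs.

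The same libraries differed in the marker lists of several epithelial classes. The 8 stem markers, a list without Lgr5, summed to 949 CPM alone and 595 CPM in coculture, with all 8 detected in both, and the 8 regenerative markers to 1043 and 332 CPM, with 7 and 8 detected. Enteroendocrine markers summed to 132 and 670 CPM. Their part in the receptor differences was not tested.

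Among 51 further genes of the Wnt pathway, 36 could be compared between the organoid libraries, and 2 were past the fold in each direction, with a median log2 ratio of -0.36. These counts stand beside the 5.05% lower and 2.76% higher of all genes given above, and under median-of-ratios scaling 0 were lower. The Wnt targets Cd44, an adhesion receptor (-1.04, -1.16 to -0.93), and Ephb3, a receptor that positions crypt cells (-1.07, -1.25 to -0.88), were lower. Past the fold in the other direction were the Wnt receptor Fzd1, with 2 and 20 UMIs, and the Wnt antagonist Sfrp5, with 3 and 22 UMIs and an interval that includes 0 (1.71, -0.02 to 4.09). Of 10 compared Wnt targets 2 were past the fold, and their median was -0.64. The feedback target Axin2 was at 40.9 and 24.2 CPM (-0.76, -0.85 to -0.67) and Sox9 at 82.8 and 50.7 CPM (-0.71, -0.77 to -0.64), whereas Sp5 (-0.07, -0.19 to 0.06) and Myc (-0.05, -0.12 to 0.02) had intervals that include 0.

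**Figure D3:**
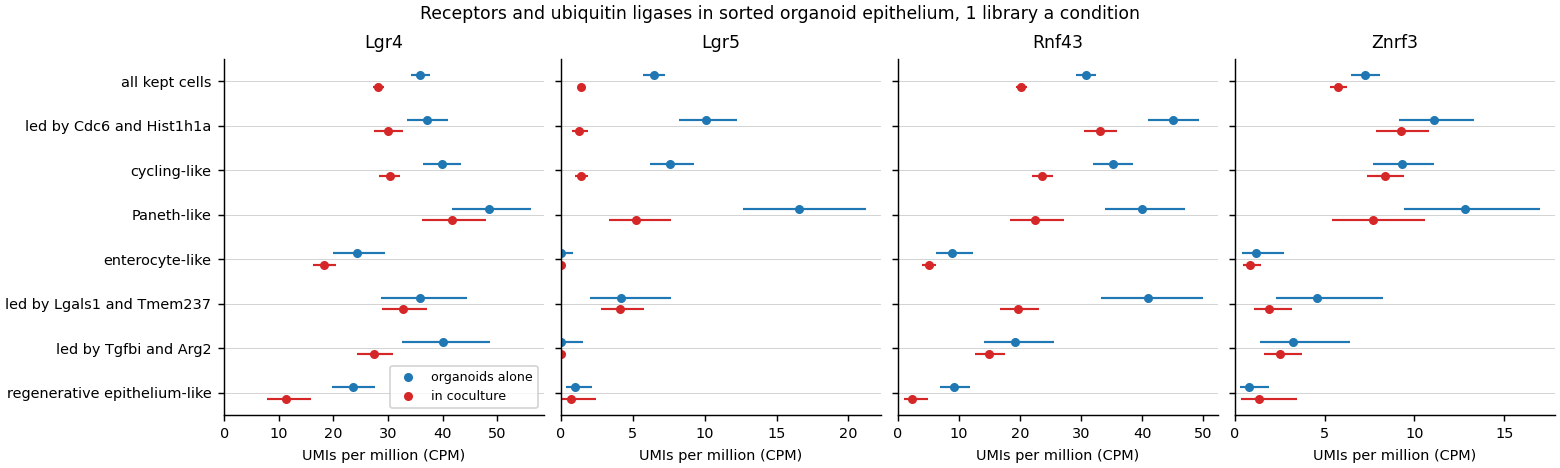
Levels of Lgr4, Lgr5, Rnf43 and Znrf3 in CPM (horizontal axes, scaled per panel) in organoids alone and in coculture, over all kept cells and by cell class or cluster (vertical axis). Points are levels of 1 library and lines are 95% Poisson intervals. Lgr5 is lower in coculture in the clusters led by Cdc6 and Hist1h1a (10.1 against 1.21 CPM). The cluster led by Lgals1 and Tmem237 is at 4.18 and 4.08 CPM, the latter with 15 of 32 UMIs in 1 cell.

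The Visium sections placed the module in tissue that had not been sorted. Of 7 members with at least 20 UMIs over the 4 sections, 4 were past the fold in every pair of a small with a large intestinal section, namely Rspo1, Rspo2, Rspo3 and Lgr5, all higher in the small intestine. Without mitochondrial and ribosomal protein genes in the total, Rspo3 was at 0.99 and lost the call. Among 16839 genes 11.1% were past it in that direction and 10.2% in the other. Sections 1 and 2 of the small intestine had Rspo3 at 7.10 and 7.51 CPM, and those of the large intestine at 3.15 and 3.51 CPM (log2 ratio 1.13, 0.91 to 1.36). Rspo1 was at 2.05 and 2.09 against 0.945 and 0.913 CPM (1.16, 0.73 to 1.59). Rspo2 had 11 and 19 against 5 and 6 UMIs (2.09, 1.05 to 3.24). Lgr5 was at 9.03 and 7.21 against 2.52 and 2.24 CPM (1.76, 1.51 to 2.01). For each of these 4 genes both small intestinal sections were above both large intestinal sections. Rspo3 thus differed in the same direction in unsorted tissue as in the sorted lymphatic endothelial-like and fibroblast-like cells.

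The other 3 members were slightly lower in the small intestine and not past the fold. Lgr4 was at 105 and 101 against 128 and 124 CPM, Rnf43 at 14.5 and 13.2 against 17.0 and 16.7 CPM and Znrf3 at 5.75 and 6.18 against 7.90 and 6.80 CPM, each with a log2 ratio of -0.29. Lgr6 had 4, 8, 1 and 3 UMIs and Rspo4 had 2 UMIs in section 2 of the small intestine.

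Of 49 pathway genes compared between the tissues in the sections, 10 were past the fold in the higher direction in the small intestine and 4 in the lower, beside 11.1% and 10.2% of all genes, with a median of 0.53 against 0.00 over all genes. Among the 12 Wnt targets, 4 were past the fold as higher and 0 as lower. Sp5 stood at 2.38 and 2.56 against 0.0970 and 0.160 CPM (4.26, 3.38 to 5.30), the feedback inhibitor Nkd1 at a log2 ratio of 2.03 (1.87 to 2.19), Axin2 at 1.62 (1.52 to 1.73) and Tnfrsf19 at 1.54 (1.17 to 1.92). Lef1 was lower (-1.54, -2.24 to -0.89) but not past the fold in every pair of sections. By less than the fold, Sox9 (-0.50), Ephb2 (-0.53) and Myc (-0.56) were lower and Cd44 (0.53) and Ccnd1 (0.56) higher, with intervals clear of 0. Tcf7 and Ephb3 had intervals that include 0. Receptors past the fold were Fzd3, Fzd9 and Lrp5 (1.82, 1.69 to 1.96). Antagonists were split, with Dkk2 (3.61, 3.20 to 4.05), Notum (2.47) and Apcdd1 (2.29) higher and Sfrp2 (-3.97, -4.82 to -3.23), Sfrp4 (-2.80) and Frzb (-1.66) lower. The transcription factor gene Tcf7l1 was lower (-2.62, -2.82 to -2.42).

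In the sorted tissue the same list was compared within classes. In fibroblast-like cells 35 of the 51 genes could be compared, 8 were past the fold as higher and 3 as lower in the small intestine, beside 6.73% and 7.45% of all genes. Dkk2 (4.39, 3.25 to 5.63), Sfrp1 (1.66, 1.48 to 1.83) and Apcdd1 (2.12, 1.17 to 3.02) were higher antagonists, and Bcl9 (2.15), Ephb2 (2.03), Lrp5 (1.93), Fzd7 (1.29) and Axin1 (1.29) were the other higher genes. Lower were Sfrp2 (2 against 86 UMIs), Sfrp4 (1 against 109 UMIs) and Cd44 (-1.46, -3.10 to -0.20). In lymphatic endothelial-like cells 19 could be compared, and the co-receptor gene Lrp6 (1.03, 0.38 to 1.73), Tcf7l1 (1.23, 0.39 to 2.17) and Pygo2 (1.19, -0.39 to 3.20) were past the fold as higher and 0 as lower, beside 8.06% and 4.92% of all genes. In cycling-like cells 41 could be compared, with 4 higher and 8 lower, beside 7.93% and 11.7% of all genes. The higher genes were Fzd5 (2.68, 2.51 to 2.85), Axin2 (1.06, 0.94 to 1.18), Tnfrsf19 (1.81) and Sfrp5 (72 against 1 UMI). Tcf7l1 (-5.37, -7.00 to -4.14), Fzd3 (-5.20), Cd44 (-1.64), Fzd8 (-1.43) and Ephb3 (-1.04, -1.47 to -0.62) were lower, as were Sfrp1 (2 against 45 UMIs), Fzd9 (1 against 19 UMIs) and Ror1 (0 against 24 UMIs). In tuft-like cells 26 could be compared, with 2 higher and 4 lower, beside 8.88% and 7.32% of all genes. Fzd5 (2.29, 1.36 to 3.36) and Dvl1 (1.05, 0.43 to 1.69) were higher. Ccnd1 (-1.88, -2.60 to -1.21) and Tcf7l1 (-1.83, -2.60 to -1.10) were lower, and Fzd10 (-1.36, -2.91 to 0.05) and Myc (-1.02, -2.20 to 0.10) were past the fold with intervals that include 0.

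Spots were grouped into regions by expression without the members, and a region is called by its leading genes, since a spot holds several cells. In the small intestine Rspo3 was highest in the region led by Gal, Nmu and Elavl4 (32.3 and 30.9 CPM in sections 1 and 2), genes of enteric neurons, and in the region led by Actg2, Tpm2 and Myh11 (30.6 and 26.2 CPM), genes of smooth muscle. The region led by Defa35, Defa34 and Defa36, defensins of Paneth cells, followed at 12.4 and 13.5 CPM, and every other region drawn was at or below 2.71 CPM. Rspo1 was highest in the same 2 regions, at 9.46 and 8.23 CPM in that led by Actg2 and at 7.18 and 6.56 CPM in that led by Gal. Lgr5 had another order, with 28.7 and 27.5 CPM in the region led by the defensins, 22.2 and 19.3 CPM in that led by Iglc1 and Jchain, 14.3 and 14.6 CPM in that led by Ube2c and Ccna2 and 3.62 and 4.94 CPM in that led by Actg2. The region led by the defensins was therefore the one in which both Rspo3 and Lgr5 were above 10 CPM in both sections.

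Lgr4 in the small intestine was highest in the region led by Ube2c and Ccna2 (173 and 165 CPM) and in that led by Gsdmc2 (143 and 153 CPM), and lowest in that led by Gal (41.3 and 50.6 CPM). Rnf43 was highest in the regions led by the defensins (24.5 and 23.0 CPM) and by Ube2c (20.9 and 24.3 CPM). Znrf3 was at 11.3 and 14.6 CPM in the former, 11.6 and 15.005 CPM in the latter, 11.7 and 12.3 CPM in the region led by Actg2 and 5.39 and 19.7 CPM in that led by Gal. Its intervals overlapped between the first 3 of these in both sections.

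In the large intestine Rspo3 was highest in the region led by Vip, Elavl4 and Uchl1, genes of enteric neurons (21.8 and 18.0 CPM), and in the region led by the lymphatic genes Mmrn1, Ccl21a and Lyve1 (14.99 and 18.4 CPM), whose intervals overlapped. The region led by Pi16, Msln and Upk3b, the last of them mesothelial genes, was at 4.64 and 12.3 CPM, and here the sections differed. Lgr5 was highest in the region led by Mmrn1, Ccl21a and Lyve1, at 13.3 and 12.8 CPM, against 5.62 and 3.37 CPM in that led by Dlk1 and 3.78 and 3.32 CPM in that led by Defb45. Lgr4 was lowest in that region, at 60.4 and 65.6 CPM, and highest in that led by Acta1 and Clca4b, at 188 and 186 CPM. Rnf43 was at 22.3 and 28.8 CPM in the region led by Mmrn1 and at 24.4 and 29.8 CPM in that led by Pi16.

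**Figure D4:**
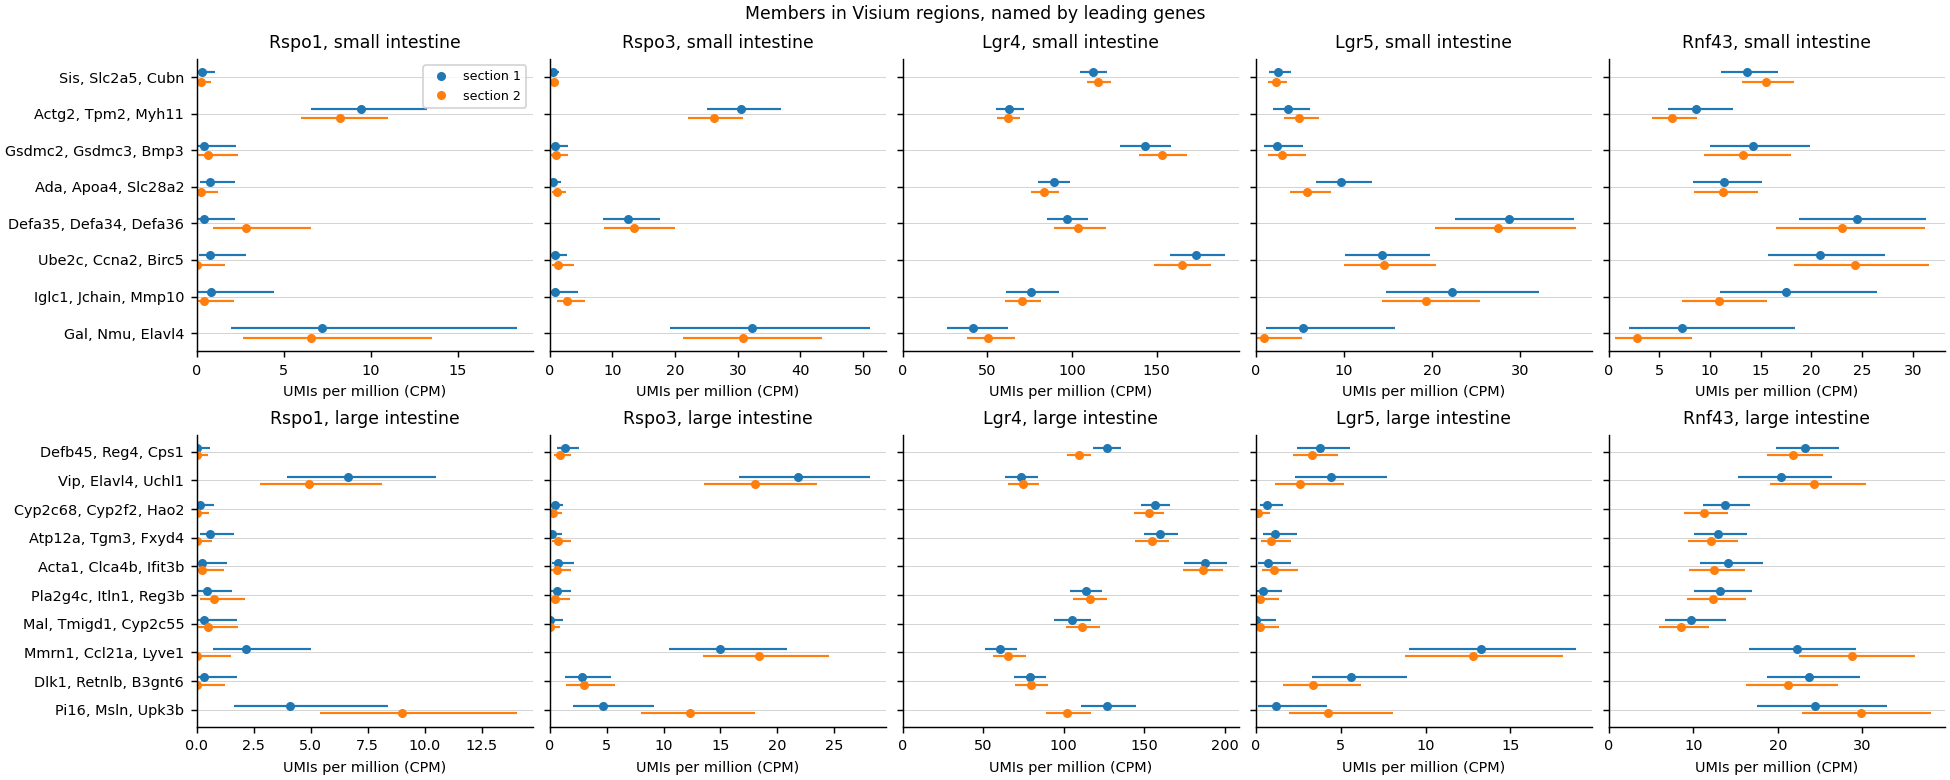
Levels of Rspo1, Rspo3, Lgr4, Lgr5 and Rnf43 in CPM (horizontal axes, scaled per panel) by Visium region, named by 3 leading genes (vertical axis), in sections 1 and 2 of the small (upper) and large (lower) intestine. Points are levels and lines are 95% Poisson intervals, and regions with fewer than 20 spots in a section are not drawn. Rspo3 is highest in regions led by neuronal or muscle genes in the small intestine, and in the large intestine Rspo3 and Lgr5 are both high in the region led by Mmrn1.

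Spots with and without a UMI of the 7 lymphatic markers were compared after every spot was thinned to 2000 UMIs. Rspo3 per 100 spots was 2.43 with and 1.82 without in section 1 of the small intestine (log2 ratio 0.42, -1.13 to 1.69), 4.11 and 0.844 in section 2 (2.28, 1.10 to 3.42), 1.95 and 0.418 in section 1 of the large intestine (2.22, 0.56 to 3.91) and 2.69 and 0.512 in section 2 (2.39, 0.98 to 3.84). These values rest on 6 to 12 Rspo3 UMIs in the spots with lymphatic UMIs and moved with the thinning. Across the other thinning settings they ranged from 0.91 to 1.57, 1.11 to 1.30, 1.82 to 3.31 and 1.66 to 2.86 in the same order, so that the gap between the small intestinal sections was not kept. Without thinning every interval was clear of 0, at 0.91 (0.46 to 1.36), 1.14 (0.75 to 1.54), 1.93 (1.24 to 2.68) and 2.86 (2.09 to 3.73), whereas at 1000 UMIs every interval included 0.

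Muscle and fibroblast markers divided Rspo3 as well. Spots above the median of the smooth muscle or pericyte list held 37 and 28 Rspo3 UMIs in the small and 15 and 19 in the large intestinal sections, and the remaining spots held 2, 2, 0 and 1. Spots above the median of the fibroblast list held 36, 28, 14 and 18 against 3, 2, 1 and 2. Among spots with many muscle UMIs, the split by lymphatic UMIs gave log2 ratios of -0.25 (-1.80 to 1.04), 1.47 (0.23 to 2.64), 0.76 (-0.90 to 2.46) and 1.60 (0.16 to 3.12) in the order of sections above. Muscle-rich spots therefore held most of the Rspo3 UMIs. Within them the lymphatic split also moved with the thinning, from 0.45 to 0.95 and from 0.63 to 0.68 in sections 1 and 2 of the small intestine, and from 0.63 to 2.02 and from 0.15 to 2.08 in those of the large intestine. With another seed the intervals of section 2 included 0 in both tissues (-0.86 to 1.94 and -0.03 to 2.43). These marker lists rise together in the same spots, and their separate parts cannot be told apart.

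**Figure D5:**
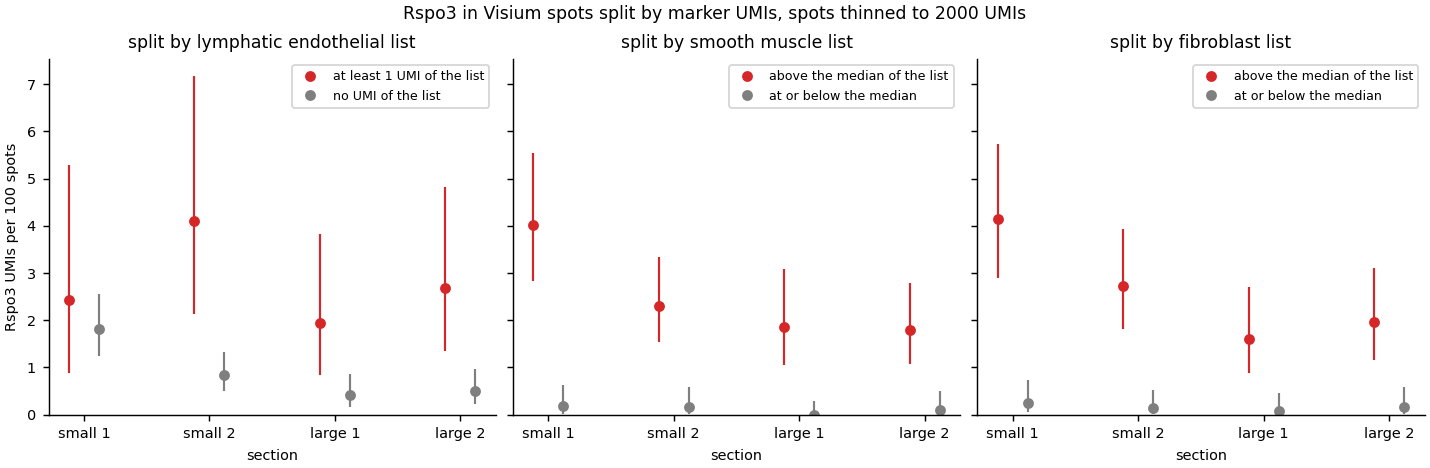
Rspo3 UMIs per 100 Visium spots (vertical axis) in each section (horizontal axis), split by lymphatic endothelial markers, by smooth muscle markers and by fibroblast markers, with spots thinned to 2000 UMIs. Points are rates and lines are 95% Poisson intervals. The split by muscle leaves 2, 2, 0 and 1 UMIs in the spots at or below the median.

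Spots with both an R-spondin UMI and a Lgr5 UMI were few. Without thinning there were 14 and 19 in the small intestinal sections, where the product of the 2 shares gives 15.7 and 15.6, and 6 and 11 in the large intestinal sections, where it gives 6.55 and 6.90. This product does not allow for the depth of a spot. After thinning to 2000 UMIs there were 0 and 1 in the small intestinal sections, where it gives 1.16 and 0.660. Both large intestinal sections then had 0, where it gives 0.161 and 0.0840. Lgr5 in spots with over spots without a UMI of the stem list had log2 ratios of 1.58 (0.48 to 2.89) and 0.71 (-0.34 to 1.86) in the small intestine, and 2.08 (0.16 to 4.56) and 0.55 (-2.02 to 3.32) in the large intestine, the last from 4 and 3 Lgr5 UMIs. Without thinning the first large intestinal value was -0.05 (-1.64 to 2.25), and with another seed the first small intestinal value was 0.35 (-0.64 to 1.41).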

How the data were processed

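Members, gene lists and comparisons were chosen with earlier results of these data known. The deposited matrices hold raw counts of UMIs per gene and barcode. Cell Ranger 6.0.1 and the build mm10 are named for the single-cell counts, per the submitters' processing notes, and Space Ranger 1.2.1 for the sections, per the file headers. The matrices list called cells or spots and carry no normalization.

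A cell was kept if it had 500 genes or more and no more than 20% mitochondrial UMIs (stricter alternative 1000 and 10%, looser 200 and 50%), and a spot if it had 500 UMIs or more. The highest Scrublet doublet scores were removed, 0.8% per 1000 cells. Clusters came from 2000 variable genes, 30 principal components, 15 neighbours and Leiden clustering, at resolution 1 for cells and 0.5 for spots, with members, pathway genes, GFP features and mitochondrial, ribosomal protein and sex genes left out. Of 24 marker lists, a cluster took the best with at least 3 markers that were in 10% of its cells and 1 log2 unit above the other cells. It stayed unnamed where another list led its 10 top genes or its depth was low. Colonocyte markers were not used for the small intestine and organoids, nor enterocyte markers for the large intestine. In organoids the pair of clusters that met the rule for stem cells is given by its leading genes, Cdc6 and Hist1h1a, a choice made after seeing them. Classes under 20 cells were not compared. Names were rebuilt here, since no deposited annotation was used.

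Levels are CPM of summed counts. Ratios used genes with at least 20 UMIs, a count under 3 was set to 3 there, and past the fold means 1 log2 unit. Sections needed it in every pair. Thinning used 2000 UMIs (tissue, spots), 10000 (organoids) or 5000 (cells split by Lgr5). All 9 members are named, along with pathway genes past the fold and the 3 genes most like each member with at least 100 UMIs. Targets were also set beside them after their values were seen (Axin2, Sox9, Sp5 and Myc in organoids, and those not past the fold in the sections). Splits of spots at a list's median were added after seeing the data. Statistics were tested on simulated data. Software was Python 3.11.15, numpy 2.4.6, scipy 1.17.1, pandas 2.3.3, scanpy 1.11.5, leidenalg 0.10.2 and matplotlib 3.10.9.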

Additional observations from a re-analysis of the deposited data

Results flagged for a closer look

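Barcodes removed by the filters carried member UMIs above the limit that a count of 0 allows, in data the comparisons did not use. The 6086 removed barcodes of the small intestinal tissue library held 53 Rspo3 UMIs, or 2.13 CPM (1.59 to 2.78), against 9.64 CPM in the kept cells. They also held 740 Lgr5 UMIs, or 29.7 CPM (27.6 to 31.9), against 22.0 CPM in the kept cells, and 1006 Rnf43 UMIs, or 40.4 CPM (37.9 to 43.0), against 22.7 CPM. The 2458 removed barcodes of the large intestinal library held 89 Lgr5 UMIs, or 9.96 CPM (7.99 to 12.3), against 17.0 CPM in the kept cells, and 200 Rnf43 UMIs, or 22.4 CPM (19.4 to 25.7), against 28.0 CPM. The levels of Lgr5 and Rnf43 were thus above the kept cells among removed small intestinal barcodes and below them among removed large intestinal barcodes.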

How the results depend on the processing

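No model was fitted, and no paired analysis was possible because the section numbers only count technical duplicates. Among the alternative values for the main results, 108 kept their direction and stayed within the counting error, 14 moved and 1 reversed, and among those for the other results 62 did so, 6 moved and 3 reversed. With doublets kept, Rspo3 in lymphatic endothelial-like over fibroblast-like cells of the small intestine was 1.95, and small over large intestine in lymphatic endothelial-like cells 2.24. At resolution 0.5 the first of these was 1.89 and Lgr5 in stem-like over tuft-like cells 1.48. The loose filter gave 1.56 for the latter and 3.61 for Rnf43 in stem-like over enterocyte-like cells. Lgr4 in stem-like over enterocyte-like cells was 1.06, past the fold, without mitochondrial and ribosomal protein genes. In organoids, averaging CPM over single cells gave -1.501 for Lgr5 and -0.44 for Rnf43, and median-of-ratios scaling -0.24 for Lgr4 and -0.50 for Rnf43. Pathway genes lower in coculture numbered 1 under the strict filter and 0 under median-of-ratios scaling. Lgr5 by stem markers was -0.049 without thinning in section 1 of the large intestine and 0.35 under another seed in section 1 of the small intestine. Rspo3 by lymphatic markers among muscle-rich spots of section 1 of the small intestine reversed to 0.95 at 1000 UMIs, 0.45 without thinning and 0.76 under another seed. The causes of these moves were not tested. Rspo1 in fibroblast-like cells of small over large intestine ranged from 0.40 to 3.06. Leaving out each section in turn gave 1.06 to 1.22 for Rspo3, 1.13 to 1.19 for Rspo1, 1.60 to 1.93 for Lgr5, -0.32 to -0.26 for Lgr4, -0.35 to -0.22 for Rnf43 and -0.40 to -0.18 for Znrf3 between the tissues. Some spot splits gave no value under an alternative because a side held fewer than 3 UMIs. Depth limits Rspo1, Rspo2, Rspo4 and Lgr6 most.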

Other observations

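In organoids in coculture Rspo4 had 10 UMIs in 4 cells, of which 9 were in enteroendocrine-like cells and 6 in a single cell. The 22 enteroendocrine-like cells there were at 12.3 CPM (5.60 to 23.3). Rspo4 had 0 UMIs in organoids alone, a library with 5 enteroendocrine-like cells. For these 5 cells the interval reached 23.9 CPM, above the coculture level, so the 0 shows no difference between the libraries in this class. In the large intestinal tissue library the cluster led by Rpgrip1 and Slc24a5, whose cells had a median of 1355.5 UMIs, held Lgr4 at 117 CPM (89.5 to 150) from 61 UMIs, above the 73.5 CPM of colonocyte-like cells, and it took no class name.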
